A study of Mus musculus with 36 samples.

Results

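Frizzled proteins are the cell surface receptors for Wnt ligands, and the mouse genome encodes 10 of them, Fzd1 to Fzd10. The 10 genes were taken by symbol from a table of 54842 genes measured in 36 libraries of mouse embryonic fibroblasts (MEF), and all 10 were found. Of these, 9 had enough reads to be tested, while Fzd10 had 2 reads in all libraries together. Compared with the MSR-dCas9-Control line, the MSR-dCas9-Activator line had less transcript of 7 of the 9 tested genes at the end of induction, with Fzd2 the furthest apart, and Fzd9, which starts from a very low level, was higher in it. Over all genes 25.5% were lower and 31.7% higher at that time. When replicate 3 of both lines was left out, 4 of the 7 were called lower (Fzd2, Fzd3, Fzd5 and Fzd7), and Fzd9 was again higher. That fit called 4465 of 28819 genes lower and 5918 higher, against 7290 and 9057 of 28536 in the full fit. Fzd6 passed as higher in the Activator line before induction and at 6 h, as lower at 24 h, and not at the other 3 time points.

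A Wnt ligand binds the cysteine-rich domain on the outer side of a Frizzled receptor. Together with the co-receptors Lrp5 and Lrp6, the receptor recruits Dishevelled at the membrane, beta-catenin escapes degradation and enters the nucleus, and TCF/LEF factors switch on target genes. Other Frizzled signals do not use beta-catenin and instead orient cells in a sheet (planar cell polarity) or change calcium and the cytoskeleton. Receptors are removed from the surface by the ubiquitin ligases Rnf43 and Znrf3, and secreted proteins such as the Sfrp family bind Wnt outside the cell. Fibroblasts both send and receive Wnt signals in development and in wound repair.

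In both cell lines a catalytically dead Cas9 (dCas9) is brought by a constitutively expressed guide RNA to major satellite repeats (MSR), the tandem repeats beside the mouse centromeres. The Control line carries dCas9 alone and the Activator line carries dCas9 joined to the transcriptional activator VPR, and each line is a mixed culture with integrated transgenes rather than 1 clone. The groups were uninduced cells (guide RNA present, no doxycycline), cells at the end of induction with 10 ng/ml doxycycline, and cells kept in fresh medium without doxycycline for 3, 6, 12 or 24 h, with 3 replicates in each of the 12 groups. Doxycycline was given for 24 h in the Control line and for 6 h in the Activator line, so at every time from induction on the lines differ in the length of exposure as well as in the effector, and these cannot be told apart. The paper reports that most Activator cells were apoptotic or dead by the last time point, while MSR transcripts stayed high. The share of dying cells in the sequenced cultures is not given, and its part in the Frizzled levels was not tested. The MSR-dCas9-Repressor line was not analysed here.

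Gene counts per library ran from 27376846 to 57371803. The major satellite family GSAT_MM checked the labels: it took 0.00178 to 0.00396% of all counts in the Control libraries, 0.00430 to 0.00804% in uninduced Activator libraries and 0.189 to 2.78% in Activator libraries from the end of induction on. The cells carried fibroblast markers. Col1a1 had a median of 9303 CPM (counts per 1000000 gene counts) over the libraries and Fn1, a fibronectin, had 7489 CPM, but the surface marker Thy1 stayed at or below 0.206 CPM. CPM were scaled over gene counts with TMM factors, which even out differences in library makeup.

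All 10 receptors share a short intracellular signature that binds Dishevelled: a lysine and a threonine, then 3 residues of any kind, then a tryptophan. The coding sequences that spell it (GENCODE M21 transcripts, GRCm38) are shown because they mark these genes as one family and divide it. The lysine, threonine and tryptophan codons are in capitals.
Fzd1 (chr5:4755706-4755723, - strand): AAGACActgaattccTGG
Fzd2 (chr11:102606373-102606390, + strand): AAGACActgcactcgTGG
Fzd3 (chr14:65212107-65212124, - strand): AAGACAtgctttgaaTGG
Fzd4 (chr7:89408241-89408258, + strand): AAAACTcttcacacgTGG
Fzd5 (chr1:64735011-64735028, - strand): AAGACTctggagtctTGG
Fzd6 (chr15:39033949-39033966, + strand): AAGACGtgcacagaaTGG
Fzd7 (chr1:59484607-59484624, + strand): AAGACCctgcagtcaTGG
Fzd9 (chr5:135249416-135249433, - strand): AAGACTtttcagactTGG
Fzd10 (chr5:128602796-128602813, + strand): AAGACCctgcagtccTGG
Each of the 10 coding sequences, that of Fzd8 included, held exactly 1 such in-frame match. What follows it differs. Fzd1, Fzd2 and Fzd7, which form one subfamily by sequence, end 17 codons after the tryptophan. In Fzd4 another 33 codons follow, in Fzd10 50, in Fzd9 54, in Fzd5 55 and in Fzd8 74. Fzd3 and Fzd6, the pair best known for planar polarity, carry the longest tails, with 159 and 206 codons. The pair Fzd3 and Fzd6 also differs from the rest in gene structure: on GRCm38, Fzd3 (chr14:65192449-65262463) and Fzd6 (chr15:39006034-39038188) have 8 and 9 blocks of exons, while every other member has 1 or 2.

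Promoter sequence was at hand for 6 of the 10 genes (RefSeq, GRCm38.p6, 250 bases before to 50 after the start). The stretches upstream of Fzd1, Fzd4 and Fzd7, which fell together in the Activator line, and of Fzd9, which rose, are printed 5′ to 3′ along the gene, up to the start in RefSeq or GENCODE, whichever lies further upstream. Capitals mark the GC box (GGGCGG) and the CCAAT box (CCAAT), on either strand.
Fzd1 (chr5:4758217-4758466, - strand): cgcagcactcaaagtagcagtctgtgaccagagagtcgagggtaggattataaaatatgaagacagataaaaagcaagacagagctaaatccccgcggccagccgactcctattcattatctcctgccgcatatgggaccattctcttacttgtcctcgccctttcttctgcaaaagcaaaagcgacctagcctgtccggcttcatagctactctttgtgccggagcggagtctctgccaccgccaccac
Fzd4 (chr7:89404116-89404354, + strand): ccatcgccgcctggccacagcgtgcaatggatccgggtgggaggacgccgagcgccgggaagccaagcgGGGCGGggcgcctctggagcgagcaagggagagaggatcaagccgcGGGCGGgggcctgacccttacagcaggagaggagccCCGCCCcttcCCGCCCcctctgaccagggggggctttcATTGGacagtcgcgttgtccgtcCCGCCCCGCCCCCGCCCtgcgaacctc
Fzd7 (chr1:59481897-59482146, + strand): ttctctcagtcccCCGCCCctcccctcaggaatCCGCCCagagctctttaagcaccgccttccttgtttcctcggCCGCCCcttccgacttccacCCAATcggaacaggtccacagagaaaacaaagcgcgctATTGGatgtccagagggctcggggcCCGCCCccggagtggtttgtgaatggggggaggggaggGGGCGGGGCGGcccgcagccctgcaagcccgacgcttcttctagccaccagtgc
Fzd9 (chr5:135251231-135251297, - strand): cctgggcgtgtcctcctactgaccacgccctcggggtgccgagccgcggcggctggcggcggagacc
The genes that fell did not share these letters. Within the whole windows of 300 bases, Fzd4 held 8 GC boxes, Fzd5 10 and Fzd7 7, while Fzd1 held none, and Fzd9 and Fzd10 held 1 each. Of all 32841 promoters of this length, 35.7% have at least 1 GC box. A CCAAT box was found in Fzd4, Fzd5 and Fzd7 and in 37.4% of all promoters. Fzd1 alone of the 6 held a TATAAA, which 13.6% of promoters hold. Neither CTTTGAA nor CTTTGAT, forms of the TCF/LEF site searched on both strands and found in 5.13% and 3.73% of promoters, occurred in any of the 6. GC content was 54.0% in Fzd1 and 66.7 to 78.0% in the other 5, against a median of 52.7% over all promoters. Fzd9, the gene that rose, had the highest ratio of observed to expected CpG of the 6, 1.18, which exceeds that of 99.4% of promoters. By the GENCODE start, only 67 bases of the Fzd9 window lie upstream of the gene, and the Fzd10 window lies wholly within its gene. The values for Fzd9 and Fzd10 thus come mostly from within the genes.

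Before induction the 2 lines had nearly the same set of receptors. Levels between genes were compared as CPM per kilobase of exon. In uninduced Control cells Fzd2 was the most abundant with 27.8 ± 6.16 CPM per kb (SD, n = 3), followed by Fzd6 with 16.0 ± 0.0782, Fzd7 with 11.1 ± 0.450 and Fzd1 with 10.9 ± 1.21. Fzd7 and Fzd1 overlapped between replicates, whereas Fzd2, Fzd6 and this pair did not overlap each other. Below them came Fzd5 at 4.25 ± 0.0909 CPM per kb and Fzd4 at 3.84 ± 0.118, then Fzd3 at 1.96 ± 0.0354 and Fzd8 at 1.91 ± 0.297, which overlapped. Fzd9 was at 0.113 ± 0.0376 CPM per kb and Fzd10 at 0. The Activator line gave the same order, except that Fzd1 stood above Fzd7 and Fzd8 above Fzd3, in both cases within the spread.

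Fzd6 was the 1 member that differed between the uninduced lines. It had 77.1, 77.7 and 77.1 CPM in the Control replicates and 97.8, 97.6 and 102 CPM in the Activator replicates. The groups did not overlap, and the log2 fold change of Activator over Control was 0.36 (SE 0.09, adjusted p = 0.0416), within a range of -0.19 to 0.43 over the 9 tested members. The adjusted p-values come from the quasi-likelihood test of edgeR and were corrected over 28536 genes by the Benjamini-Hochberg method, and a gene passed when its adjusted p was under 0.05. Over all genes 0.883% were higher and 0.343% lower before induction. The call was lost when any 1 of the 6 uninduced libraries was left out (adjusted p = 0.0651 to 0.255, log2 fold change 0.32 to 0.40) and without the replicate block (adjusted p = 0.119). A non-coding gene on the opposite strand, Gm26704, overlaps 3.15% of the Fzd6 exons, and Gm38058 overlaps 17.8% of those of Fzd5. Because the strand setting of the counting is not stated, their reads cannot be told apart from those of the receptors.

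**Figure D1:**
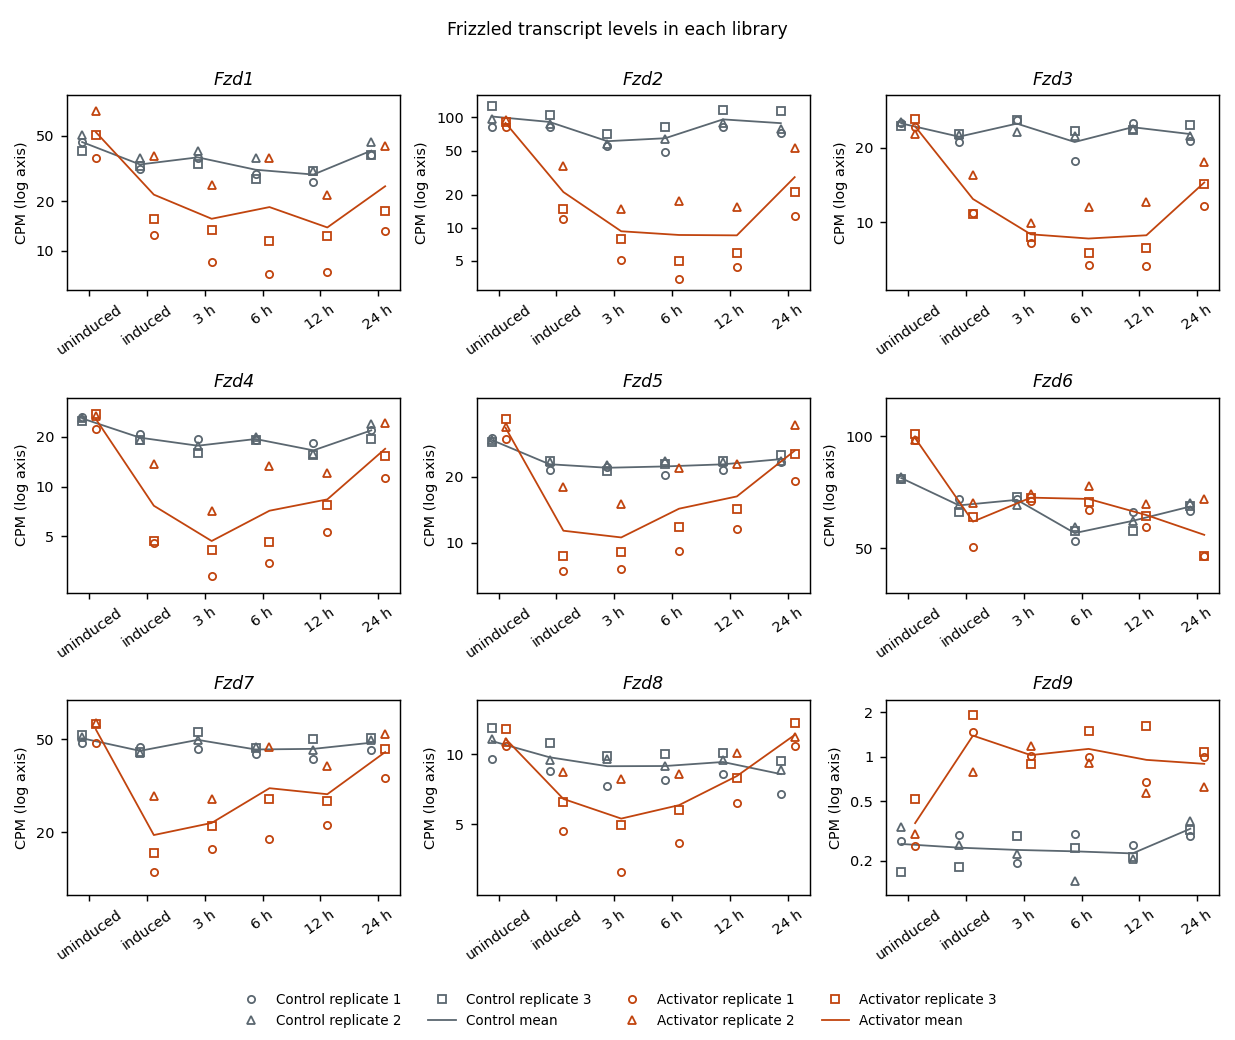
Level of each tested Frizzled gene in each library, in CPM on a log axis, against time point, with 1 symbol per replicate and a line through the mean of 3 replicates. In most panels the Activator line (orange) drops below the Control line (grey) at the end of induction and Activator replicate 2 (triangles) stays above replicates 1 and 3, while Fzd6 stays between 47.6 and 73.6 CPM in both lines from induction on and Fzd9 rises in the Activator line.

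At the end of induction 7 of the 9 tested members were lower in the Activator line and 1 was higher, where 25.5% of all genes were lower and 31.7% higher. The median log2 fold change of the 9 was -0.85, against 0.10 over all genes. In 6 members each Activator replicate lay below each Control replicate, but the share of all genes that separate in this way is not given here. The calls of Fzd1, Fzd4 and Fzd8 were lost without replicate 3 (adjusted p = 0.344, 0.0512 and 0.135), and those of Fzd1 and Fzd8 without replicate 1 (0.254 and 0.0659). A majority of all genes passed in one direction or the other, and the member counts are to be read against these shares. Under the study's stricter rule (also a fold change above 2 and a mean normalised count above 100), 4 members were lower and 5.71% of all genes were.

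Fzd2 fell the furthest. This receptor of the Fzd1, Fzd2 and Fzd7 subfamily takes part in Wnt5a signalling. At the end of induction it had 82.0, 86.4 and 104 CPM in the Control replicates and 11.9, 36.4 and 14.8 CPM in the Activator replicates, a log2 fold change of -2.26 (SE 0.42, adjusted p = 8.93e-05). All Activator replicates lay far below the Control range, with replicate 2 the least reduced. The fitted difference was wider after doxycycline was removed, with -2.85 (SE 0.44), -3.07 (SE 0.45) and -3.63 (SE 0.46, adjusted p = 1.98e-07) after 3, 6 and 12 h. The Activator means at these times were 9.29, 8.60 and 8.53 CPM and the Control means 60.8, 64.7 and 95.9 CPM. Time points after induction were not tested against each other for any member. At 12 h Fzd2 had 4.45, 15.3 and 5.87 CPM in the Activator replicates against 82.4, 89.7 and 116 CPM in Control. After 24 h the Activator replicates had 12.7, 52.2 and 21.2 CPM and the log2 fold change was -1.80 (SE 0.42, adjusted p = 7.02e-04). The groups did not overlap at any of these 5 time points, and the call held with each library left out.

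Fzd7 and Fzd1, the closest relatives of Fzd2, fell less and differed at 24 h. Fzd7, known for its role in stem cells and in embryonic Wnt signalling, had 46.3, 43.5 and 44.0 CPM in Control and 13.4, 28.6 and 16.2 CPM in Activator at the end of induction (log2 fold change -1.26, SE 0.19, adjusted p = 2.03e-06). These groups were well apart. Its difference after 3, 6 and 12 h was -1.21, -0.61 and -0.68, each passing. At 24 h Fzd7 had 34.2, 52.6 and 45.4 CPM in Activator against 45.1, 49.5 and 50.5 CPM in Control, and the difference of -0.16 (SE 0.18, adjusted p = 0.453, approximate 95% interval -0.51 to 0.20) did not pass. The 6 h call was lost without Activator replicate 1 (log2 fold change -0.35, adjusted p = 0.0947). It was also lost without replicate 1 or 3 of both lines (0.155 and 0.0921) and when only the libraries compared were fitted (0.0638). The 12 h call was lost without replicate 3 of both lines (0.0745).

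Fzd1 was the least certain of the members that fell. The Control replicates had 31.3, 36.4 and 32.7 CPM at the end of induction and the Activator replicates 12.4, 37.9 and 15.6 CPM. Activator replicate 2 exceeded every Control replicate, and replicates 1 and 3 lay below them all. The log2 fold change at the end of induction was -0.77 (SE 0.33, adjusted p = 0.0466). After 3, 6, 12 and 24 h it was -1.38, -0.96, -1.20 and -0.88, with adjusted p = 7.43e-04, 0.0118, 0.00239 and 0.0211. The 3 h call was the only one of these 5 to hold in each other fit and with each library left out. Without the replicate block the adjusted p was 0.312 at the end of induction, and 0.179, 0.0609 and 0.221 after 6, 12 and 24 h. The call at the end of induction was also lost without replicate 1 or 3 of either line (adjusted p = 0.118 to 0.172), as was that at 24 h (0.0501 to 0.176), and that at 6 h was lost without Control replicate 1 or Activator replicate 1 or 3 (0.0545 to 0.121). Replicate 2 was already the highest of the uninduced Activator libraries, with 70.4 CPM against 36.6 and 50.4 CPM.

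Fzd4 and Fzd5 were lower early and did not differ by the test at 24 h. Fzd4 is the receptor for Norrin in the blood vessels of the retina, besides binding Wnt. It had 20.7, 19.2 and 19.2 CPM in Control and 4.53, 13.8 and 4.66 CPM in Activator at the end of induction, a log2 fold change of -1.51 (SE 0.33, adjusted p = 4.12e-04). Its lowest point was 3 h, with 2.86, 7.09 and 4.11 CPM in the Activator replicates and a log2 fold change of -2.00 (SE 0.34). The difference was then -1.56 after 6 h, -1.06 after 12 h and -0.43 by 24 h (SE 0.32, adjusted p = 0.240, approximate 95% interval -1.05 to 0.19). At 24 h the groups overlapped, with 11.3, 24.1 and 15.3 CPM in Activator and 22.1, 24.0 and 19.5 CPM in Control. The 12 h call was lost without Activator replicate 1 (log2 fold change -0.78, adjusted p = 0.0623) and without replicate 1 or 3 of both lines (0.0944 and 0.0610).

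Fzd5, which is needed for vessel growth in the yolk sac, had 21.5, 23.4 and 23.5 CPM in Control and 7.41, 17.9 and 8.73 CPM in Activator at the end of induction (log2 fold change -1.08, SE 0.21, adjusted p = 1.11e-04). The replicates did not overlap. After 3, 6 and 12 h the difference was -1.11, -0.70 and -0.53, the last with adjusted p = 0.0247. At 24 h it was 0.08 (SE 0.21, adjusted p = 0.751, approximate 95% interval -0.33 to 0.49), and the Activator replicates had 19.0, 34.3 and 25.5 CPM and straddled the Control range of 23.3 to 25.2 CPM. The 6 h call was lost without Activator replicate 1 (adjusted p = 0.0680) and without replicate 1 or 3 of both lines (0.0951 and 0.118). That at 12 h was lost without replicate 1 or 3 of either line (adjusted p = 0.0809 to 0.233), without the replicate block (0.129) and with DESeq2 (0.139).

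Fzd8, the closest relative of Fzd5, was lower than in Control early and higher than in Control at 24 h. At the end of induction it had 8.51, 9.41 and 11.2 CPM in Control and 4.68, 8.38 and 6.24 CPM in Activator, a log2 fold change of -0.62 (SE 0.17, adjusted p = 0.00279). It was -0.78 and -0.58 after 3 and 6 h, both passing, and -0.22 after 12 h (SE 0.17, adjusted p = 0.248). By 24 h Fzd8 had 10.8, 11.8 and 13.6 CPM in Activator and 6.77, 8.56 and 9.33 CPM in Control, with a log2 fold change of 0.57 (SE 0.17, adjusted p = 0.00461). Every Activator replicate then lay above every Control replicate. From uninduced cells to 24 h, Fzd8 changed by 0.05 in Activator (adjusted p = 0.809) and by -0.47 in Control (adjusted p = 0.221). The difference of these changes, 0.52, did not pass (adjusted p = 0.0891). The 24 h call between the lines was lost without the replicate block (adjusted p = 0.0561) and without replicate 1 or 3 of both lines (0.0567 and 0.0800). It was also lost when libraries were scaled to the mitochondrially encoded mRNAs (log2 fold change 0.36, adjusted p = 0.233). The 6 h call was lost without Activator replicate 1 (adjusted p = 0.0576), and that at the end of induction without replicate 1 or 3 of both lines (0.0659 and 0.135). Without replicate 1 or 3 of both lines the 6 h call was lost too (0.0832 and 0.123), as it was when only the libraries compared were fitted (0.0808).

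The polarity receptors Fzd3 and Fzd6 went different ways. Fzd3, which guides growing axons, was lower at each time from the end of induction on. It had 21.2, 22.6 and 22.8 CPM in Control and 10.9, 15.5 and 10.8 CPM in Activator at the end of induction (log2 fold change -0.85, SE 0.15, adjusted p = 2.62e-05). At 3 h the Activator replicates had 8.19, 9.87 and 8.70 CPM against 26.0, 23.2 and 26.0 CPM (log2 fold change -1.51, SE 0.16, adjusted p = 1.60e-09). The gap was -1.31 and -1.48 after 6 and 12 h and -0.67 by 24 h (SE 0.15, adjusted p = 3.88e-04). The lines did not overlap at any of these 5 time points and no call was lost with a library or a replicate number left out. In the Activator line the highest replicate had 1.21 times the level of the lowest at 3 h and 1.82 times at 12 h.

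Fzd6, which orients hair follicles in the skin, differed in direction between time points. At the end of induction it had 67.7, 65.3 and 62.8 CPM in Control and 50.3, 66.1 and 60.7 CPM in Activator, overlapping ranges with a log2 fold change of -0.15 (SE 0.09, adjusted p = 0.157, approximate 95% interval -0.33 to 0.03). At 3 h the difference was 0.02 (adjusted p = 0.871, interval -0.16 to 0.20) and after 12 h 0.05 (adjusted p = 0.636, interval -0.13 to 0.23). At 6 h Fzd6 passed as higher in Activator, with 63.4, 73.6 and 66.7 CPM against 52.3, 57.0 and 55.6 CPM (log2 fold change 0.30, adjusted p = 0.00403). This direction rests on the scaling: under scaling to mitochondrially encoded mRNAs the 3 h, 6 h and 12 h values were -0.59, -0.40 and -0.56. The 6 h call was lost without TMM (log2 fold change 0.16, adjusted p = 0.191) and without replicate 3 of both lines (0.0552). At 24 h Fzd6 passed as lower (log2 fold change -0.26, adjusted p = 0.0143), with 47.8, 67.8 and 47.6 CPM in Activator against 63.2, 66.1 and 65.1 CPM. Activator replicate 2 exceeded all Control replicates there. The 24 h call was lost without Activator replicate 1 or 3 (log2 fold change -0.085 and -0.066, adjusted p = 0.475 and 0.571) and with DESeq2 (adjusted p = 0.178).

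Fzd9 was the 1 member that was higher in the Activator line at every time point from the end of induction on. The gene lies in the mouse counterpart of the human Williams syndrome region and acts in bone formation. It was close to silent in the Control line, with 0.298, 0.253 and 0.182 CPM at the end of induction, against 1.46, 0.786 and 1.92 CPM in Activator (log2 fold change 2.38, SE 0.35, adjusted p = 1.53e-06). After 3, 6 and 12 h the log2 fold change was 2.17, 2.31 and 1.99, and after 24 h 1.46 (SE 0.35, adjusted p = 7.09e-04). No Activator replicate reached down into the Control range at any of these times, and each call held with each library left out. These are small numbers of reads: Fzd9 had 5 to 94 reads per library with a median of 15.5, so single values carry a large counting error. Its highest level was the 1.92 CPM of Activator replicate 3 at the end of induction.

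Fzd10 was not detectable at this depth in 34 of 36 libraries. Its 2 reads came from Activator replicate 1, at 6 h and at 24 h, and gave 0.0226 and 0.0242 CPM. The 18 Control libraries had 0 reads among 738705089 gene counts, which allows up to 0.00406 CPM (3 reads). This limit covers counting error only. Since Fzd10 was not tested, no difference is given for it.

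**Figure D2:**
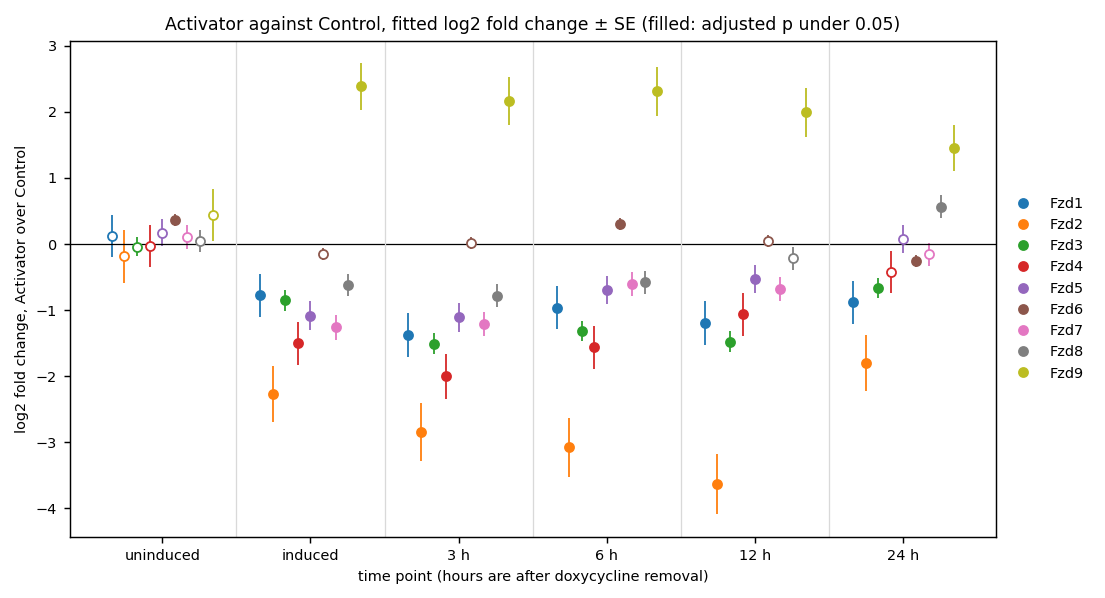
Fitted log2 fold change of Activator over Control with its SE for the 9 tested Frizzled genes at the 6 time points, filled where the adjusted p was under 0.05. Fzd2 lies lowest at all 5 time points from the end of induction on, reaching -3.63 at 12 h, and Fzd9 highest, between 1.46 and 2.38.

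The counts of members called over the time course are to be read against the shares of all genes given beside them. At 3 h 7 members were lower and 1 higher (31.4% and 39.6% of all genes), with a median of -1.21 against 0.16 over all genes. The 6 h counts were 7 and 2 (33.3% and 40.8%), those after 12 h 6 and 1 (34.1% and 41.1%) and those after 24 h 4 and 2 (29.4% and 34.5%). The medians over the members at these 3 times were -0.70, -0.68 and -0.26, and those over all genes 0.13, 0.12 and 0.01. Without replicate 3 of both lines 4, 3 and 3 members passed after 6, 12 and 24 h, and without replicate 1 they numbered 5, 5 and 3. Of 28819 genes in the fit without replicate 3, 7471, 7853 and 4993 were lower at these times and 9395, 10125 and 7638 higher. Of 28237 in the fit without replicate 1, 7972, 8251 and 5623 were lower and 9909, 10274 and 7240 higher. The full fit called 9513, 9728 and 8401 of 28536 genes lower and 11631, 11728 and 9839 higher. With the stricter rule 6, 3 and 4 members were lower after 3, 6 and 12 h (9.45%, 10.3% and 10.9% of all genes), and Fzd2 alone after 24 h (4.12%). Of the 7 members lower at the end of induction, Fzd4, Fzd5 and Fzd7 did not pass at 24 h, Fzd8 passed as higher, and Fzd1, Fzd2 and Fzd3 were again lower, together with Fzd6. Whether these late Activator levels come from viable cells was not tested, given the cell death described above.

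Changes within each line were set apart from differences between them. In the Activator line 8 members fell and Fzd9 rose between uninduced cells and the end of induction, where 28.0% of all genes fell and 32.9% rose. Fzd2 fell by 2.23 on the log2 scale, Fzd4 by 1.86, Fzd5 by 1.63, Fzd7 by 1.54 and Fzd1 by 1.35. Smaller falls were seen in Fzd3 (1.00), Fzd8 (0.89) and Fzd6 (0.75), and Fzd9 rose by 1.95. So Fzd6 did fall within the line, from 97.6 to 102 CPM down to 50.3 to 66.1 CPM, starting from the higher level noted above. At 24 h Fzd1, Fzd2, Fzd3 and Fzd6 were still lower than in uninduced Activator cells (by 1.19, 1.81, 0.78 and 0.87) and Fzd9 was still higher by 1.33, while 28.5% of all genes were lower and 34.3% higher. The Fzd1 call at 24 h was lost without the replicate block (adjusted p = 0.0656) and without replicate 3 (0.112), and those of Fzd2 and Fzd9 were lost without replicate 1 (0.0627 and 0.0875). Fzd4 (log2 fold change -0.65, adjusted p = 0.0758), Fzd5 (-0.39, adjusted p = 0.107), Fzd7 (-0.33, adjusted p = 0.109) and Fzd8 (0.05, adjusted p = 0.809) did not pass. The Fzd1 call at the end of induction was lost without replicate 3 (adjusted p = 0.0801).

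In the Control line no member passed, either at the end of induction or at 24 h, when 0.214% and 0.788% of all genes passed in either direction. The fitted changes ran from -0.46 to 0.01 and from -0.47 to 0.31, and 1 and 2 members had an unadjusted p under 0.05. With DESeq2, 0 and 1 passed. This zero depends on the libraries in the fit. When the spread was taken from the 6 Control libraries compared, 5 members were lower at the end of induction (Fzd1, Fzd4, Fzd5, Fzd6 and Fzd7, log2 fold changes -0.45 to -0.17, adjusted p up to 0.0458), where 6.92% of all genes were lower, and 6 at 24 h (Fzd1, Fzd2, Fzd4, Fzd5, Fzd6 and Fzd8, log2 fold changes -0.49 to -0.19), where 12.6% were. Fzd5, for example, went from 28.8 to 30.0 CPM before induction to 21.5 to 23.5 CPM after it in Control cells, without overlap.

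The change from uninduced cells was then compared between the lines. To the end of induction, Fzd2, Fzd3, Fzd4, Fzd5, Fzd6, Fzd7 and Fzd8 fell further in the Activator line than in the Control line, and Fzd9 rose further, where 17.7% and 14.5% of all genes passed in these directions. The difference between the lines' changes was largest for Fzd2, at -2.08 (SE 0.58, adjusted p = 0.00850), and was -1.37 (SE 0.26, adjusted p = 2.66e-04) for Fzd7. Fzd1, at -0.89 (SE 0.46, adjusted p = 0.138), did not pass. The Fzd4 call was lost without Activator induced replicate 3 (adjusted p = 0.0539) and that of Fzd8 with each of 7 of the 12 libraries left out in turn (0.0643 to 0.101). Without the replicate block 5 of the 8 calls remained, and Fzd2, Fzd4 and Fzd8 had adjusted p = 0.0630, 0.0751 and 0.197. Without replicate 3 of both lines the calls of all 7 members that fell further were lost (adjusted p = 0.0631 to 0.349) and 1 of the 8 calls, that of Fzd9, remained. In that fit 744 of 28819 genes passed as lower and 930 as higher, against 5049 and 4128 of 28536 in the full fit. Without replicate 1 the calls of Fzd5 and Fzd7 remained. To 24 h, 3 members passed as lower (Fzd2 -1.61, Fzd3 -0.63 and Fzd6 -0.62) and none as higher, against 18.7% and 14.4% of all genes. Of these, Fzd6 kept its call with each library left out, whereas the Fzd2 call was lost for 8 and the Fzd3 call for 7 of the 12 libraries when each was left out in turn (adjusted p = 0.0533 to 0.171). None of the 3 calls held without replicate 3 (adjusted p = 0.117 to 0.344), and the Fzd6 call alone held without replicate 1. Over all genes, 975 of 28819 passed as lower without replicate 3, against 5336 of 28536 in the full fit.

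Summed over the family, the receptor transcripts of the Activator cells differed in amount and in makeup. The levels of the 10 genes summed to 78.0 ± 5.83 CPM per kb in uninduced Control cells and 82.1 ± 7.65 in uninduced Activator cells. At the end of induction the sums were 65.9 ± 2.81 in Control and 32.9 ± 12.1 in Activator, and at 24 h 68.0 ± 7.01 and 44.6 ± 16.0 (SD, n = 3 each). The replicates of the 2 lines did not overlap at the end of induction, and at 24 h the highest Activator replicate, at 62.4, passed the lowest Control replicate, at 61.3. Fzd2 made up 29.6 ± 0.836% of the summed level in uninduced Activator cells, 16.4 ± 4.27% at the end of induction 6.29 ± 3.35% at 6 h and 16.1 ± 6.08% at 24 h. Fzd6 made up 25.2 ± 2.33% before induction, 39.2 ± 8.46% at its end, 49.3 ± 8.90% at 3 h and 26.2 ± 4.52% at 24 h. Its own level was 20.5 ± 0.469 CPM per kb before induction, 12.2 ± 1.66 at its end, 14.2 ± 0.332 at 3 h and 11.3 ± 2.41 at 24 h, so its share was larger while its level was lower. In the Control line Fzd2 stayed between means of 27.7% and 40.2% and Fzd6 between 19.2% and 23.5%. Fewer cells that express a gene and less RNA in each cell cannot be told apart in bulk samples.

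**Figure D3:**
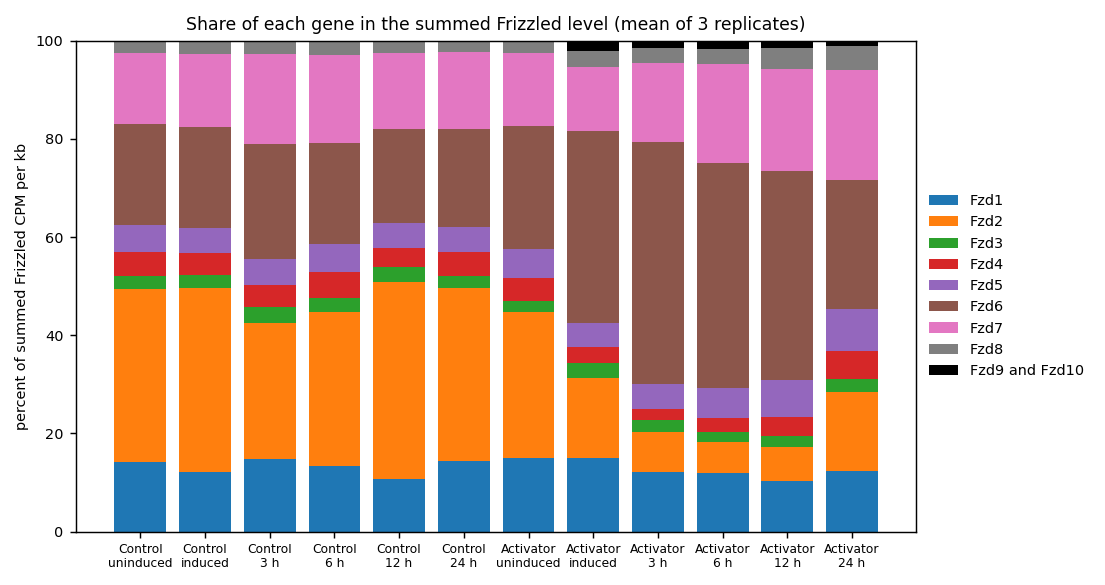
Share of each Frizzled gene in the summed CPM per kb of the 10 genes, as the mean of 3 replicates, in percent, for the 6 time points of each line. In the Activator line the Fzd2 band is narrower and the Fzd6 band wider from the end of induction to 12 h than before induction, while the Control bars keep Fzd2 as the widest band.

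The Activator replicates did not respond equally in most members. At all 5 time points from the end of induction on, replicate 2 had the highest level of the 3 for Fzd1 to Fzd7, and at 4 of 5 for Fzd8. Replicate 1 was the lowest at all 5 time points for Fzd1, Fzd2, Fzd4, Fzd5, Fzd7 and Fzd8. Fzd9, which moved the other way, was lowest in replicate 2 at 4 of 5. At 6 h the highest replicate had 5.10 times the Fzd2 level of the lowest and 5.06 times that of Fzd1, but 1.16 times that of Fzd6. For Fzd6 this ratio was between 1.05 and 1.43 over the 5 time points, and Fzd9 was highest in replicate 2 at 3 h. The share of GSAT_MM did not follow this order: at the end of induction it was 0.281% in replicate 1, 0.189% in replicate 2 and 1.79% in replicate 3, and replicate 1 had the lowest share at the other 4 times. The part of this in the Frizzled levels was not tested.

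Markers of other cells were looked at beside these results. The 12 fibroblast markers summed to 32142 to 35854 CPM in uninduced Control and 34393 to 35304 CPM in uninduced Activator cells. The sums at the end of induction were lower in both lines and overlapped, with 24321 to 28556 CPM in Control and 24493 to 28801 CPM in Activator. At 24 h the sums were 24479 to 26855 and 11249 to 20645 CPM. Of 6 endothelial markers, 1 was above 1 CPM in Control and 3 in Activator cells at the end of induction. Pecam1 reached 32.7 CPM and Tek 17.0 CPM in Activator libraries, whereas the defining markers Cdh5, Kdr and Emcn stayed at or below 0.533, 1.31 and 1.43 CPM. The summed level of these 6 was 18.8 to 40.1 CPM in Activator and 4.40 to 5.18 CPM in Control at the end of induction. The 6 leukocyte markers summed to 16.1 to 17.8 CPM in Activator and 9.40 to 11.1 CPM in Control at 3 h, led by Csf1r, with Adgre1 never above 0.0748 CPM. The 6 neuronal markers summed to 18.6 to 24.9 CPM in Activator and 22.8 to 27.3 CPM in Control at the end of induction, and to 12.3 to 20.7 and 20.1 to 22.5 CPM at 24 h. Tubb3 led this list, with a median of 19.5 CPM and a highest value of 35.8 CPM over the libraries, Syt1 and Elavl3 reached 9.49 and 2.37 CPM, and Nefl and Snap25 had medians of 0. The 6 epithelial markers summed to 1.98 to 2.83 CPM in Activator and 0.897 to 1.05 CPM in Control at the end of induction. Among them Cdh1 reached 2.92 CPM, and Epcam and Krt5 had medians of 0. The 6 pluripotency markers summed to at most 2.54 CPM, with Pou5f1 up to 1.62 CPM, Nanog up to 1.06 CPM and Utf1 at 0. The part of any marker change in the Frizzled results was not tested.

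Likeness of pattern over the 12 group means of log2 CPM was described with Pearson's r, with no test, since these means share libraries and the contrast between the lines. Among the members with a mean normalised count above 100, Fzd2 and Fzd3 were the most alike (r = 0.987), followed by Fzd5 with Fzd7 (0.956) and Fzd4 with Fzd5 (0.955). Fzd6 stood apart, with r from 0.204 with Fzd8 to 0.494 with Fzd1. Of 13620 other genes, the one most like Fzd2 was Dcaf17 (0.997), like Fzd3 Atxn7l3b (0.998), like Fzd4 Rhou (0.993), like Fzd1 Vps13d (0.982), like Fzd7 Gm26603 (0.982), like Fzd8 Prdm2 (0.978), like Fzd5 Prokr1 (0.973) and like Fzd6 Jup (0.909). Rhou encodes a small GTPase that Wnt-1 can induce, and Jup encodes plakoglobin, a relative of beta-catenin. Each of the genes named here was picked as the highest of 13620, and a link to Wnt signalling was not tested for any of them.

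The partners of the receptors were read from 9 lists with 105 genes, 94 of them tested. At the end of induction 28 were lower and 34 higher in Activator, and at 24 h 33 and 35, with list medians of 0.02 and 0.04. The counts below are to be read against all genes, of which 25.5% were lower and 31.7% higher at the end of induction (median 0.10), and 29.4% and 34.5% at 24 h (median 0.01). The lists were not tested against each other. The end-of-induction counts were 17 and 23 when replicate 3 of both lines was left out. Among 15 tested Wnt ligands 7 were higher and 1 lower at the end of induction, with a list median of 1.15, and without replicate 3 of both lines 5 were higher and none lower. Wnt2b was higher by 2.43 (SE 0.22) and Wnt11, a ligand of beta-catenin-independent signalling, by 1.15 on the log2 scale, and Wnt9a was lower (log2 fold change -0.77, adjusted p = 0.0485). The Wnt9a replicates overlapped between the lines. At 24 h Wnt11 was higher by 2.46 and Wnt4 was lower (log2 fold change -1.02).

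Of 10 tested extracellular inhibitors 8 were higher and none lower at the end of induction, with a median of 2.11. The number higher was 3 without replicate 3 of both lines. Before induction 2 were already higher and 1 lower, with a median of 0.95. Sfrp1, a secreted decoy that shares the cysteine-rich domain of the Frizzleds, was higher by 1.91 (SE 0.33, adjusted p = 3.53e-05) at the end of induction and by 2.66 at 24 h. Its 24 h levels were 38.8 ± 32.7 CPM in Activator and 5.78 ± 0.294 CPM in Control (SD, n = 3), without overlap. Sfrp2 was higher by 0.89 (adjusted p = 0.0254) at the end of induction. At 24 h 5 inhibitors were higher and 2 lower, among them Kremen1 (log2 fold change -0.23, adjusted p = 0.0412). Of those higher at 24 h, only Sfrp1 had a mean normalised count above 100. In the list of ligand secretion and other Frizzled ligands, 2 of 6 were higher at the end of induction, and at 24 h 3 were higher and Wls, which carries Wnt to the surface, was lower (log2 fold change -0.36). None of the genes of this list that were higher had a mean normalised count above 100. The 24 h replicates of Wls and of Kremen1 overlapped between the lines.

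Co-receptors and other Wnt receptors divided evenly at first, with 3 of 13 lower and 4 higher (none and 4 without replicate 3 of both lines), and at 24 h 7 were lower and 5 higher. Reck, which works with Adgra2 in Wnt7 signalling, was higher by 1.21 at the end of induction and 1.94 at 24 h. Lgr4, an R-spondin receptor, was higher by 0.52 and 0.42. Ror1 and Ror2, receptors for Wnt5a, were lower at the end of induction (log2 fold changes -0.67 and -0.50), and Ryk (-0.92) and Smo (-1.08), the Frizzled relative that serves Hedgehog signalling, were lower at 24 h. Among the 7 genes of Frizzled turnover and surface delivery, 3 were lower and 3 higher at the end of induction (1 and 2 without replicate 3 of both lines). Dact1, a Dishevelled binding protein, had a log2 fold change of -1.89 (SE 0.25), the ligase gene Znrf3 -0.39 (adjusted p = 0.0309) and Tmem59 0.44. At 24 h 1 was lower, Usp8 (-0.47), which takes ubiquitin off Frizzled, and 3 were higher.

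Of 16 genes of the cytoplasmic relay 9 were lower and 3 higher at the end of induction, where 25.5% and 31.7% of all genes were, and 11 and 1 at 24 h, where 29.4% and 34.5% were. The list medians were -0.24 and -0.39, and without replicate 3 of both lines 7 were lower and 1 higher at the end of induction. Of the destruction complex that degrades beta-catenin, Axin1 had a log2 fold change of -1.26 (SE 0.14) and Amer1 of -1.83 (SE 0.28) at the end of induction, and Gsk3a of -0.81 and Amer1 of -1.20 at 24 h. Apc2 was higher, by 1.53 and 1.13. Tnks was higher by 0.22 at the end of induction but its log2 fold change was -0.15 under scaling to mitochondrially encoded mRNAs. Of 10 nuclear factors 7 were lower and 2 higher at the end of induction, with a median of -1.07, and 5 and 2 at 24 h (1 and 1 without replicate 3 of both lines). The beta-catenin cofactor gene Bcl9l had a log2 fold change of -2.22 and the co-repressor gene Tle3 of -1.95 at the end of induction, Bcl9l of -1.47 and Bcl9 of -1.22 at 24 h. Tcf7 was higher by 0.68 and 0.65.

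Of 12 tested beta-catenin target genes 7 were higher and 3 lower at the end of induction, and 9 and 1 at 24 h, with list medians of 1.36 and 1.40. The first of these counts were 4 and 2 without replicate 3 of both lines. Several of these are also in the other lists. Of those that were higher, Tcf7 (by 0.68 and 0.65, as given above) was the 1 with a mean normalised count above 100. The other 6 at the end of induction, Axin2, Lef1, Lgr5, Notum, Rnf43 and Tnfrsf19, had mean normalised counts of 7.18 to 88.6 and log2 fold changes of up to 6.05 (Lgr5). Among those that were lower, Myc had a log2 fold change of -3.10 (SE 0.25) at the end of induction, and Ccnd1 of -0.61 and then -1.07 at 24 h. Of 11 planar polarity partners 3 were lower and 3 higher at the end of induction, shares near those of all genes, where Vangl1 (-0.81) and Daam1 (-0.68) were lower, and 4 and 5 at 24 h, where Vangl2 (-1.33) and Daam2 (-1.21) were lower and Prickle2 was higher by 1.65. Daam2 overlapped between the lines at 24 h, with 29.2 ± 29.4 CPM in Activator and 56.5 ± 10.1 CPM in Control (SD, n = 3).

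**Figure D4:**
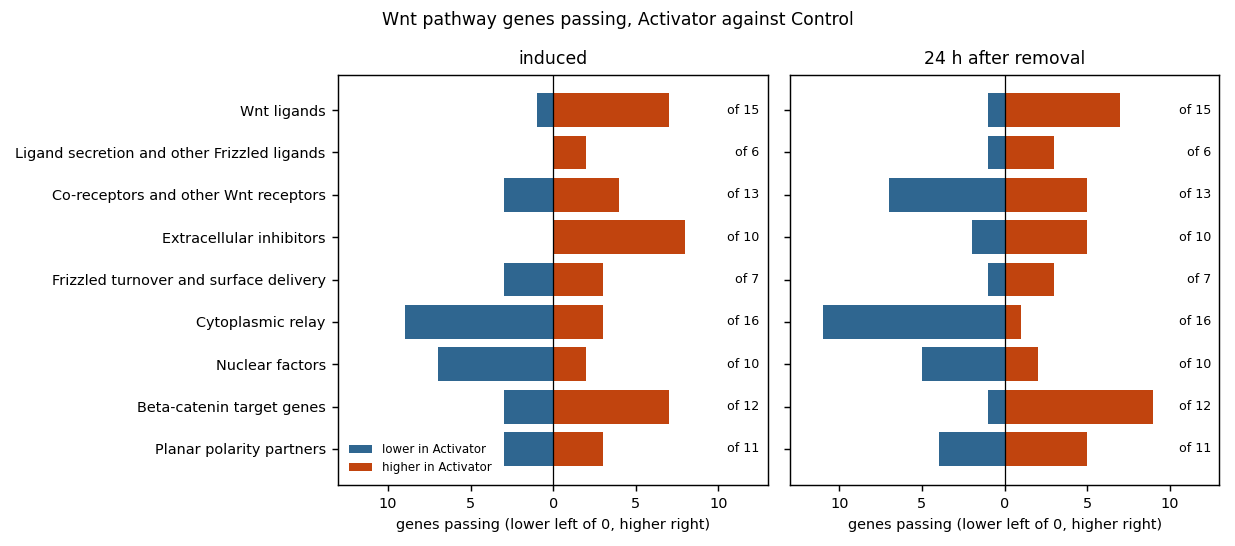
Number of genes in each of 9 Wnt pathway lists that passed as lower (left of 0) or higher (right of 0) in Activator than in Control, with the number tested, at the end of induction and at 24 h. Ligands and extracellular inhibitors lie mostly on the right (7 of 15 and 8 of 10 higher at the end of induction), the cytoplasmic relay and the nuclear factors on the left (9 of 16 and 7 of 10 lower).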

How the data were processed

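RNA of 2 MEF lines at 6 time points was measured in 36 libraries of ribosomal RNA-depleted, stranded total RNA. The deposited values are counts: the authors trimmed reads with cutadapt, mapped read pairs with STAR (GRCm38), and obtained counts of genes and repeats from TEtranscripts, without normalisation. The annotation release, the strand setting and the handling of reads with several alignments are not given in the sources used here. The 54842 gene rows were used, 1561 repeat families served for GSAT_MM, and 1 unnamed row (0.00326% of counts) was left out; 54495 genes matched GENCODE M21.

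Genes were filtered with filterByExpr (28536 kept), scaled with TMM and fitted with edgeR 4.0.16 (R 4.3.3, quasi-likelihood, robust) over all 36 libraries, with 12 groups and the replicate number as a block, since the study's design includes the replicate. The SE is the absolute log2 fold change over the root of F, and approximate 95% intervals follow from it. The statistics script was tested on simulated data. The study describes the replicates as independent experiments. Same-numbered Activator and Control libraries deviated together in 16 of 18 pairs (r above 0.1; range -0.0230 to 0.509). Alternatives used DESeq2 1.42.0, other scalings, filters, thresholds and subsets of libraries. Of the lists, up to 2 higher and 2 lower genes each were named at the end of induction and at 24 h, those with the largest changes among genes that passed with a mean normalised count above 100. The members and lists were chosen with earlier results of these data known.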

Additional observations from a re-analysis of the deposited data

Results flagged for a closer look

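The change from uninduced cells differed between the lines, by the test of that difference (edgeR's quasi-likelihood test, Benjamini-Hochberg adjusted over 28536 genes), for 8 Frizzled genes at the end of induction. Of all genes, 17.7% passed as lower and 14.5% as higher in that test. On the log2 scale, the Activator change less the Control change was -2.08 for Fzd2, -0.81 for Fzd3, -1.47 for Fzd4, -1.26 for Fzd5, -0.51 for Fzd6, -1.37 for Fzd7, -0.66 for Fzd8 and 1.95 for Fzd9. Without replicate 3 of both lines 1 of these 8 calls remained, that of Fzd9, and 744 of 28819 genes passed as lower and 930 as higher. At 24 h the difference was -1.61 for Fzd2, -0.63 for Fzd3 and -0.62 for Fzd6, where 18.7% of all genes passed as lower and 14.4% as higher. The 24 h call of Fzd2 was lost in 4 of 8 other fits and with 8 of 12 libraries left out in turn, that of Fzd3 in 6 of 8 and with 7 of 12, and all 3 without replicate 3 of both lines. Fzd6 is the case to look at again, since its levels at the end of induction overlapped between the lines, while the Activator line had started higher (97.6 to 102 against 77.1 to 77.7 CPM), a starting difference that did not pass when any 1 of the 6 uninduced libraries was left out.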

How the results depend on the processing

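Of 39 calls of Frizzled genes between the lines, 28 held in all 8 other fits, 29 with each library left out and 23 with each replicate number left out of both lines. From uninduced to 24 h, 0.343, 25.5, 31.4, 33.3, 34.1 and 29.4% of all genes were lower and 0.883, 31.7, 39.6, 40.8, 41.1 and 34.5% higher. Frizzled genes passing numbered 1, 8, 8, 9, 7 and 6 at these times. Before induction the count was 0 without the replicate block, without TMM, under mitochondrial scaling, without a filter on low counts and under the stricter rule, and 0 to 1 with replicates or libraries left out. With them left out the counts were 5 to 8 at the end of induction, and 4 to 9, 3 to 8 and 3 to 7 after 6, 12 and 24 h. These ran from the count without replicate 3 (also replicate 1 for 24 h) to that without replicate 2. The stricter rule gave 4, 3, 4 and 1 at these times, where fewer genes can pass by construction. The shares of all genes for the changes within the lines and for their difference are given above, by the adjusted p alone. By the stricter rule, shares are given only for genes lower in Activator than in Control from the end of induction on. The stricter counts that follow, for these comparisons and for the list genes, have no such share beside them. Within the Activator line, 9 members passed at the end of induction (5 by the stricter rule) and 5 at 24 h (2 by the stricter rule, 3 to 8 with libraries left out). Within the Control line, 0 became 5 and 6 in the fit of only the libraries compared, and at 24 h 1 with DESeq2 and 0 to 1 with libraries left out. The difference of the changes passed in 8 members at the end of induction (5 without the replicate block, 4 by the stricter rule, 1 to 9 with libraries left out) and in 3 at 24 h (1 without the replicate block, without TMM, under mitochondrial scaling, without a filter or by the stricter rule, 0 to 5 with libraries left out). Of the list genes, 8, 62, 66, 73, 80 and 68 passed; the stricter rule gave 2, 14, 19, 22, 23 and 13, mitochondrial scaling 2 before induction, and leaving out a replicate number 2 to 5 before and 40 to 64 at the end of induction.

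Mitochondrial scaling moved the median of all genes to -0.25 at the end of induction and -0.58 at 6 h, so directions near 0 follow the scaling. Under it the log2 fold change was -0.59 at 3 h, -0.40 at 6 h and -0.56 at 12 h for Fzd6, -0.12 at 24 h for Fzd5, -0.14 for Fzd8 from uninduced to 24 h in Activator, and -0.15 for Tnks at the end of induction. Without TMM, Fzd6 was at -0.094 at 3 h and -0.051 at 12 h. In the fit of only the libraries compared, Fzd7 was at 0.013 at 24 h. With libraries left out, the log2 fold change ran from -0.046 to 0.19 for Fzd6 at 3 h, -0.075 to 0.29 for Fzd5 and -0.26 to 0.014 for Fzd7 at 24 h, and -0.073 to 0.16 for Fzd8 from uninduced to 24 h. Beyond this the cause was not tested. Depth limits Fzd9 and Fzd10 most.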
